A study of Bos taurus with 23 samples.

Results

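ISG15, MX1 and MX2 are 3 interferon-stimulated genes that are used as markers of pregnancy recognition in ruminants. They were chosen by Ensembl identifier, as ENSBTAG00000014707 (ISG15), ENSBTAG00000030913 (MX1) and ENSBTAG00000008471 (MX2), and make up 3 of the 18897 genes in the read count table. All 3 passed the filter on low counts, which left 15227 genes for testing, and each had at least 17 reads in every Control library. The choice did not use the values, but it was made with earlier results of these data known.

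Before implantation, the trophectoderm of the ruminant conceptus secretes interferon tau, a type I interferon. This protein binds the type I interferon receptor on the endometrium, and signalling from the receptor switches on interferon-stimulated genes in the nucleus. ISG15 encodes a small ubiquitin-like protein that is attached to other proteins. MX1 and MX2 encode related dynamin-like GTPases with antiviral activity. In the RefSeq annotation of the later assembly ARS-UCD2.0, MX1 and MX2 are neighbours on the same chromosome with 0 annotated genes between them, and ISG15 is on a different chromosome.

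The tissue was intercaruncular endometrium, the gland-bearing uterine lining between the sites of placental attachment. Uteri were taken at mid luteal phase, and explants were punched from them. Every explant was cultured for 6 h in RPMI medium. Control explants had medium alone (n = 6), and IFNT explants had recombinant ovine interferon tau at 100 ng/mL (n = 6). AI explants shared the well with a Day 15 conceptus grown from a transferred blastocyst produced in vivo (n = 4). IVF explants shared it with a Day 15 conceptus grown from a transferred blastocyst produced in vitro (n = 7). The conceptuses measured 8 to 54 mm, and 6 were male and 5 female. How much interferon tau a conceptus released is not given by the labels, so the conceptus groups and the IFNT group are not matched for dose. The 4 AI titles share 1 further code and the 7 IVF titles carry 5, of which 2 codes are each on 2 libraries, and conceptuses that share a code may not be independent. The titles also number the explants by U, and this number is called the uterus here. Uteri 1 to 4 gave an explant to all 4 groups, uteri 5 and 10 to all but AI, and uterus 7 to IVF alone.

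Libraries held between 19461678 and 36730378 counts. Levels are given as CPM, the usual count unit relative to the library total, here with totals scaled by the TMM method. Samples were bulk tissue, in which more cells carrying a transcript and more transcript per cell cannot be told apart. CPM are not corrected for gene length, so levels are compared between samples and not between genes. Identifiers other than these 3 could not be paired with symbols, so the endometrial identity of the explants and the rest of the interferon pathway were not examined by name. The 3 genes together took 0.00709% ± 0.00198 (SD, n = 6) of all counts in Control libraries. In IFNT libraries the share was 0.579% ± 0.205 (SD, n = 6), in AI libraries 0.494% ± 0.148 (SD, n = 4) and in IVF libraries 0.456% ± 0.116 (SD, n = 7).

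The first comparisons asked how far each treatment raised these genes above medium alone. ISG15, MX1 and MX2 rose in all 3 treated groups, by 136-fold to 155-fold, 38.6-fold to 48.4-fold and 345-fold to 531-fold. The background to these 3 of 3 calls was small: 3.07% of all tested genes were called higher with IFNT, 2.75% with AI and 2.92% with IVF. With genes called lower included, these shares were 3.21%, 3.15% and 3.37%. How many tested genes stood above Control in every treated library, or rose in every uterus, was not counted. The statements on overlap and on uteri below therefore have no background share beside them. The 3 comparisons share the same Control explants, so they are not independent of each other. A gene was called at a Benjamini-Hochberg adjusted p under 0.05, taken over all tested genes.

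**Figure D1:**
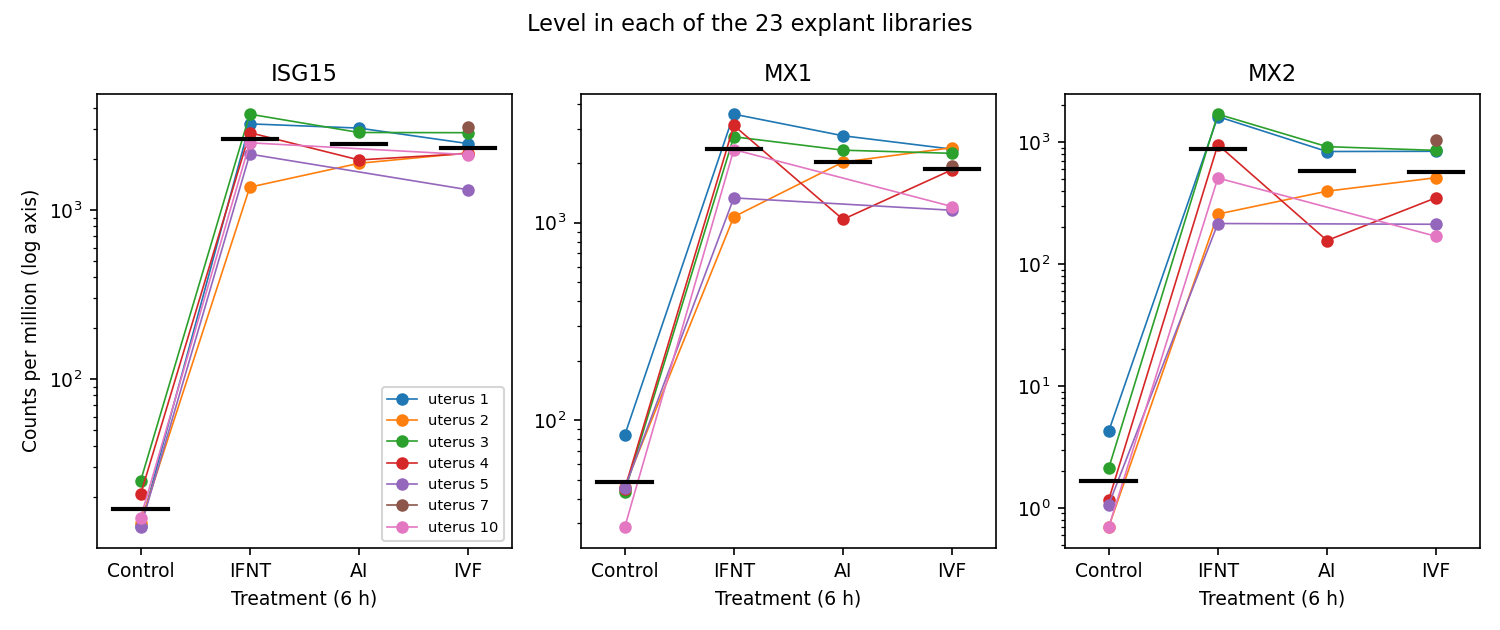
Level of ISG15, MX1 and MX2 in each of the 23 libraries, in CPM on a log axis, by treatment; colours and thin lines mark explants of the same uterus and black bars are group means. Every treated library lies above every Control library, by at least 52.6-fold for ISG15, 12.4-fold for MX1 and 36.5-fold for MX2. How many other genes separate in this way was not counted. The treated libraries of MX2 are the most spread.

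ISG15, the ubiquitin-like modifier, was low in medium alone. Its Control libraries ranged from 13.3 to 25.1 CPM with a median of 14.7, from 277 to 792 reads. With IFNT they ranged from 1365 to 3691 CPM with a median of 2683. The groups did not overlap, and the IFNT explant of uterus 2 was the lowest. The AI libraries were at 3052, 1889, 2875 and 1979 CPM for uteri 1 to 4 in turn. The IVF libraries ranged from 1318 CPM in uterus 5 to 3112 CPM in uterus 7, with a median of 2178. All conceptus libraries lay above Control and within or just below the range of IFNT. The log2 fold change against Control was 7.27 ± 0.30 with IFNT (SE, edgeR adjusted p = 5.22e-14). For AI explants the change was 7.17 ± 0.31 (SE), at an edgeR adjusted p of 1.32e-13, and for IVF explants it was 7.09 ± 0.30 (SE), at 8.23e-14. Among the 15227 tested genes ISG15 had the 8th highest log2 fold change with IFNT and with AI and the 7th highest with IVF.

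MX1, an antiviral GTPase, was already measurable in every explant in medium alone, from 703 to 1731 reads. Its Control libraries ranged from 28.7 CPM in uterus 10 to 83.9 CPM in uterus 1 with a median of 45.1. With IFNT they ranged from 1072 CPM in uterus 2 to 3548 CPM in uterus 1 with a median of 2537. The groups did not overlap. The AI libraries were at 2758, 2027, 2330 and 1040 CPM for uteri 1 to 4 in turn, so that uterus 4 lay well below the others. The IVF libraries ranged from 1157 CPM in uterus 5 to 2399 CPM in uterus 2 with a median of 1943. The IVF explant of uterus 10 was nearly as low as that of uterus 5, at 1208 CPM. The log2 fold change against Control was 5.60 ± 0.36 with IFNT (SE, edgeR adjusted p = 7.78e-11). For AI explants the change was 5.39 ± 0.37 (SE), at an edgeR adjusted p of 2.54e-10, and for IVF explants it was 5.27 ± 0.35 (SE), at 1.52e-10. These fold changes ranked 32, 28 and 31 from the top among the tested genes.

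MX2, the neighbouring GTPase gene, had few reads in medium alone, at 17 to 88 reads per Control library. Its Control libraries ranged from 0.695 CPM in uterus 10 to 4.27 CPM in uterus 1 with a median of 1.12. With IFNT they ranged from 215 CPM in uterus 5 to 1695 CPM in uterus 3 with a median of 730.1. The AI libraries were at 837, 396, 918 and 156 CPM for uteri 1 to 4 in turn, again lowest in uterus 4. The IVF libraries ranged from 169 CPM in uterus 10 to 1036 CPM in uterus 7 with a median of 511. No treated library came near Control, but treated libraries differed among themselves by up to 10.9-fold. That span was 2.80-fold for ISG15 and 3.41-fold for MX1. The log2 fold change against Control was 9.05 ± 0.81 with IFNT (SE, edgeR adjusted p = 2.47e-08). For AI explants the change was 8.45 ± 0.81 (SE), at an edgeR adjusted p of 8.31e-08, and for IVF explants it was 8.43 ± 0.79 (SE), at 5.59e-08. It was the highest log2 fold change of all tested genes in each of the 3 comparisons. By p-value MX2 ranked only 74, 71 and 73, where ISG15 ranked 4, 3 and 2 and MX1 ranked 31, 30 and 33, and its standard error was more than 2 times theirs.

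Explants of the same uterus were then compared with each other, which takes the differences between uteri out of the response. The difference in log2 CPM between the treated and the Control explant of a uterus was above 0 in 6 of 6 uteri with IFNT, 4 of 4 with AI and 6 of 6 with IVF, for each gene. For ISG15 it averaged 7.24 ± 0.43 with IFNT (SD, n = 6), 7.07 ± 0.54 with AI (SD, n = 4) and 7.01 ± 0.35 with IVF (SD, n = 6). For MX1 it averaged 5.54 ± 0.72 with IFNT (SD, n = 6), 5.19 ± 0.53 with AI (SD, n = 4) and 5.27 ± 0.44 with IVF (SD, n = 6). For MX2 it averaged 8.84 ± 0.82 with IFNT (SD, n = 6), 8.07 ± 0.95 with AI (SD, n = 4) and 8.18 ± 0.71 with IVF (SD, n = 6). Sign flips over the 6 uteri (exact, two-sided) gave p = 0.0312 for each gene with IFNT and with IVF, which is the smallest value 6 uteri can give and becomes 0.0938 when adjusted over 18 tests. For AI the exact p was 0.125, the smallest value 4 uteri can give, and 0.25 when adjusted.

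**Figure D2:**
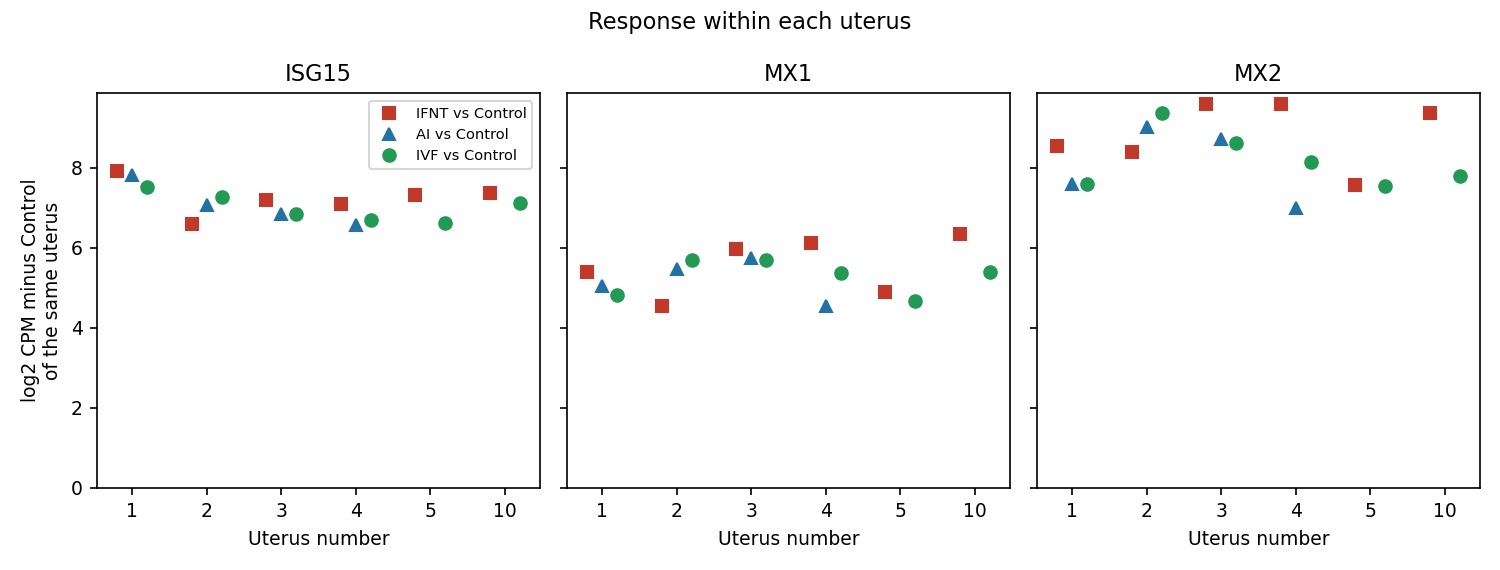
Log2 CPM of the IFNT, AI and IVF explants minus that of the matching Control explant, by uterus, for the 3 genes. Responses of ISG15 lie between 6.56 and 7.90, those of MX1 between 4.53 and 6.35, and those of MX2 between 6.98 and 9.60, and the uterus with the highest point differs between genes.

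The uterus with the largest response was not the same for the 3 genes. For ISG15 the IFNT response was highest in uterus 1, at 7.90, and lowest in uterus 2, at 6.59. For MX1 it was highest in uterus 10, at 6.35, where Control was lowest, and lowest in uterus 2, at 4.54. For MX2 it was highest in uteri 3 and 4, at 9.60 and 9.59, and lowest in uterus 5, at 7.57. In uterus 1 the ISG15 response stood above that of the other uteri with each treatment, while its MX1 response with IVF, at 4.81, was among the lowest. Uterus 1 also had the highest Control level of MX1 and of MX2.

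The response of MX2 exceeded that of MX1 in every uterus and with every treatment. The difference between their log2 responses averaged 3.30 ± 0.43 with IFNT (SD, n = 6, exact two-sided sign-flip p = 0.0312, adjusted p = 0.0469 over 9 such tests). It averaged 2.91 ± 0.42 with IVF (SD, n = 6), with the same exact p and adjusted p, and 2.88 ± 0.50 with AI (SD, n = 4, exact p = 0.125, adjusted p = 0.141). ISG15 also responded more than MX1 in every uterus, by 1.70 ± 0.71 with IFNT (SD, n = 6), 1.74 ± 0.55 for IVF (SD, n = 6) and 1.88 ± 0.71 for AI (SD, n = 4), with the same exact and adjusted p values as for MX2 against MX1. MX2 responded more than ISG15 by 1.60 ± 0.94 with IFNT (SD, n = 6) and 1.17 ± 0.75 with IVF (SD, n = 6), again at an exact p of 0.0312 and an adjusted p of 0.0469. With AI the difference was 1.00 ± 1.08 (SD, n = 4, exact p = 0.25, adjusted p = 0.25), and in uterus 1 it was -0.23. An exact p of 0.0312 is the smallest that 6 uteri allow.

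The next question was whether a conceptus gave another level of these genes than recombinant interferon tau. In the comparison of group means, which did not model the uterus, none of the 3 genes was called with AI or IVF against IFNT. Neither was any of the 15227 tested genes (0%). At an unadjusted p under 0.05 edgeR had 1495 genes for AI and 866 for IVF against IFNT. DESeq2 called 36 of 14604 genes for AI and 14 of 15675 for IVF after adjustment, with no member among them. All 6 estimates were below 0. For ISG15 the log2 fold change was -0.10 with AI, with a 95% interval of -0.64 to 0.43, and -0.18 with IVF, with an interval of -0.64 to 0.27. For MX1 it was -0.21 with AI (-0.90 to 0.48) and -0.32 with IVF (-0.91 to 0.26). For MX2 it was -0.60 with AI (-1.93 to 0.73) and -0.62 with IVF (-1.75 to 0.50). The intervals therefore still hold differences of more than 3-fold in MX2 and less than 2-fold in MX1 and ISG15. The edgeR adjusted p values lay between 0.814 and 0.999. The AI and IVF comparisons share the same IFNT explants. The order of the group means was IFNT, AI, IVF and Control for each gene, and only the step down to Control was larger than the spread. The groups held different uteri, and with the uterus as a block AI was below IVF in MX1 and MX2.

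**Figure D3:**
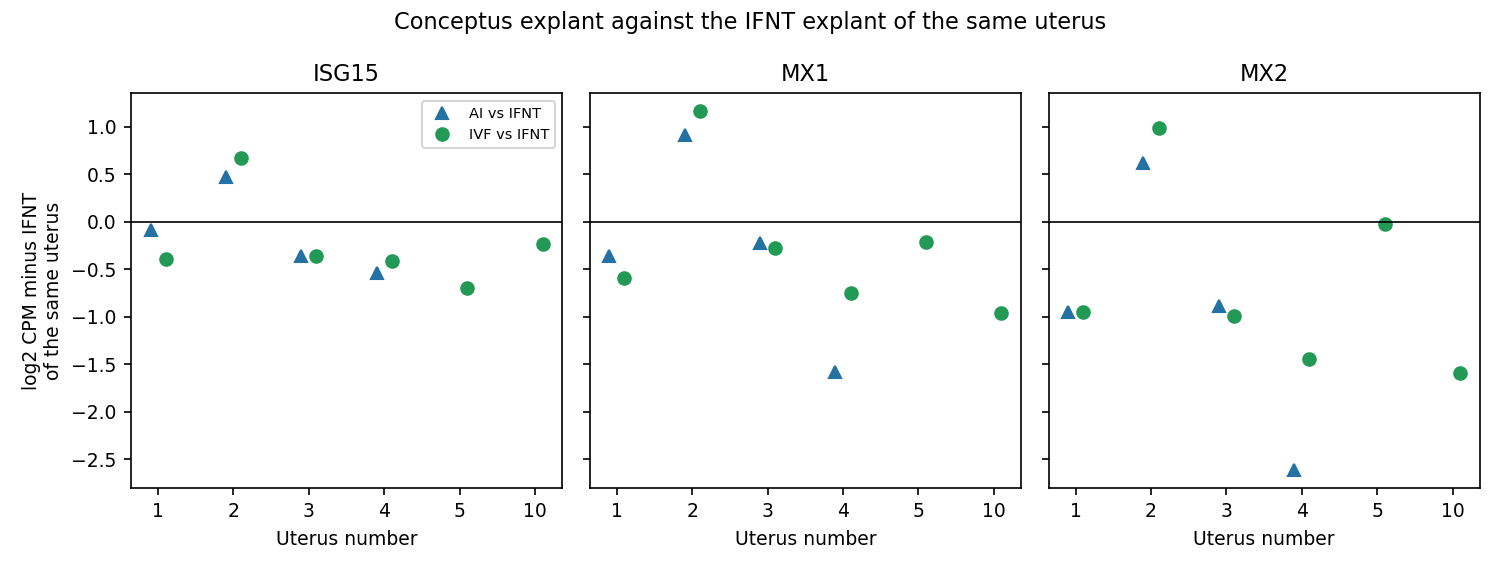
Log2 CPM of the AI and IVF explants minus that of the IFNT explant of the same uterus, by uterus, for the 3 genes; the line at 0 is the IFNT level. All points lie below 0 except those of uterus 2, and the lowest is the AI explant of uterus 4 for MX2, at -2.61.

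Within uteri, both conceptus explants exceeded the IFNT explant in uterus 2 for all 3 genes, and the conceptus explants of the other 5 uteri were below it. For ISG15 the AI explant had log2 differences from the IFNT explant of -0.083, 0.47, -0.36 and -0.54, for uteri 1 to 4 in turn. For MX1 these values were -0.36, 0.92, -0.23 and -1.58. For MX2 they were -0.95, 0.62, -0.89 and -2.61. Uterus 2 had the lowest IFNT level of ISG15 and of MX1, and uterus 4 the largest deficit of the AI explant in each gene. The IVF explant differed by -0.70 to 0.67 for ISG15, with a mean of -0.24 ± 0.47 (SD, n = 6, exact sign-flip p = 0.281, adjusted p = 0.422). It differed by -0.96 to 1.16 for MX1, with a mean of -0.27 ± 0.76 (SD, n = 6, exact p = 0.406, adjusted p = 0.522). For MX2 it differed by -1.59 to 0.99, with a mean of -0.67 ± 0.98 (SD, n = 6, exact p = 0.188, adjusted p = 0.338). With AI the means were -0.13 ± 0.44 for ISG15, -0.31 ± 1.02 for MX1 and -0.96 ± 1.32 for MX2 (SD, n = 4), at exact p values of 0.625, 0.625 and 0.25. None of these differences exceeded the spread between uteri.

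With the uterus as a block in the edgeR model, 1058 of 15227 genes were called between AI and IFNT and 3 of 15227 between IVF and IFNT. ISG15, MX1 and MX2 were not among them. With so few genes called, 3 uncalled genes are what most sets of 3 would show. MX2 came closest. Its log2 fold change was -0.98 ± 0.37 for AI against IFNT (SE, edgeR adjusted p = 0.123). For IVF against IFNT it was -0.75 ± 0.32 (SE, edgeR adjusted p = 0.297). The 95% intervals of MX2 in this model were wholly negative, at -1.77 to -0.20 with AI and -1.42 to -0.088 with IVF. The unadjusted edgeR p values were 0.0173 and 0.0288. These intervals are not adjusted for the number of genes tested. The intervals of ISG15 and MX1 in this model held both signs. DESeq2 with the same block gave MX2 a log2 fold change of -0.98 for AI against IFNT, at an adjusted p of 0.0542.

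AI and IVF conceptuses were compared for origin, and in edgeR neither the 3 genes nor any other tested gene was called (0%). At an unadjusted p under 0.05 edgeR had 343 genes, and DESeq2 called 0 after adjustment and had 541 at an unadjusted p under 0.05. The log2 fold change of AI against IVF was 0.08 for ISG15 (95% interval -0.43 to 0.59), 0.12 for MX1 (-0.55 to 0.78) and 0.02 for MX2 (-1.25 to 1.29). The direction turned with the uterus as a block, to -0.084 for MX1 and -0.23 for MX2 in edgeR and to -0.078 and -0.20 in DESeq2, with neither gene called. DESeq2 with this block called 92 of 18577 genes, with no member among them. Within uteri 1 to 4 the AI explant differed from the IVF explant by 0.30, -0.21, 0.0041 and -0.13 for ISG15 and by 0.23, -0.24, 0.05 and -0.84 for MX1. For MX2 it differed by -0.0054, -0.37, 0.10 and -1.16. In uterus 3 the AI and IVF explants were nearly equal in all 3 genes, and in uterus 4 the AI explant was lower in all 3. In each of these 4 uteri the AI conceptus was also the longer of the pair, so origin and length cannot be told apart within uteri.

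Conceptus sex gave no call in edgeR either, among the 15099 genes tested for it (0%). At an unadjusted p under 0.05 edgeR had 1089 genes, and DESeq2 called 0 after adjustment and had 1388 at an unadjusted p under 0.05. ISG15 was at 2312 CPM ± 649 (SD, n = 6) with male and 2431 CPM ± 504 (SD, n = 5) with female conceptuses. MX1 was at 1659 CPM ± 592 (SD, n = 6) and 2274 CPM ± 349 (SD, n = 5), and the log2 fold change of male against female was -0.45 with a 95% interval of -1.06 to 0.15 (edgeR adjusted p = 0.727). MX2 was at 545 CPM ± 407 (SD, n = 6) and 602 CPM ± 260 (SD, n = 5). With the uterus as a block the log2 fold changes of male against female were -0.28 for ISG15, -0.52 for MX1 and -0.63 for MX2, where without it they were -0.072, -0.45 and -0.14. None was called with the block, at edgeR adjusted p values of 0.525, 0.456 and 0.498. DESeq2 with this block called 66 of 18577 genes, with no member among them. Of the male conceptuses 5 of 6 were IVF, and of the female ones 3 of 5 were AI.

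**Figure D4:**
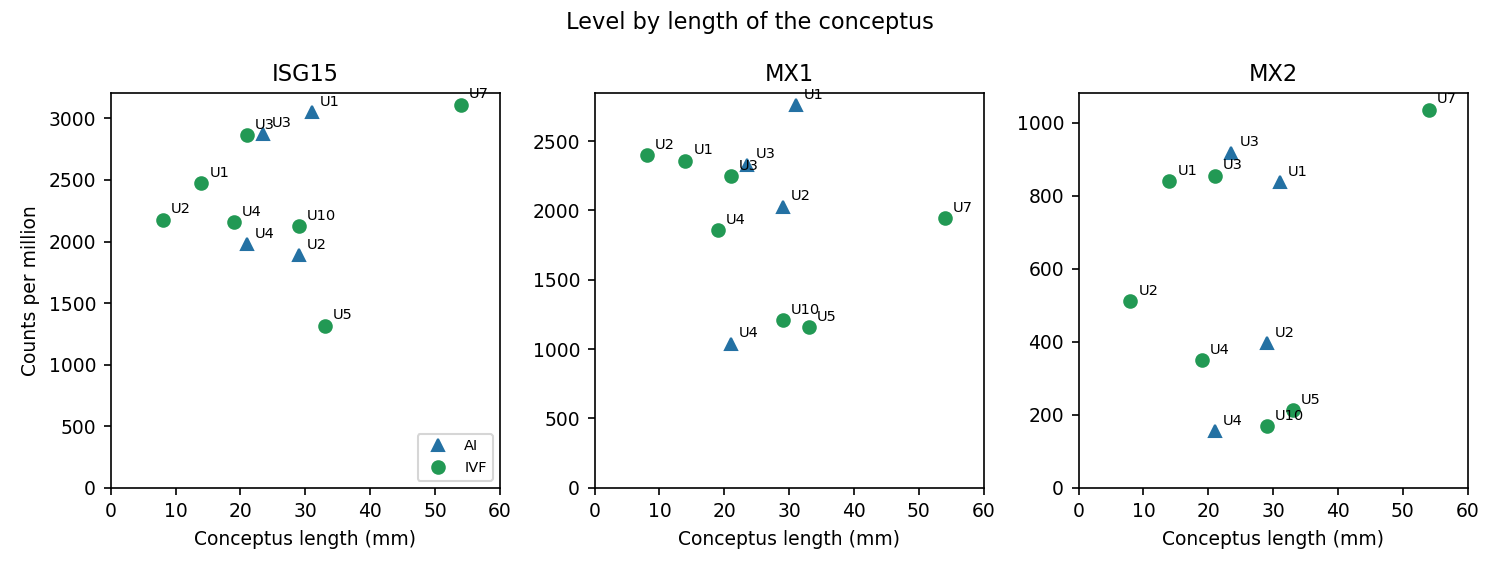
Level of the 3 genes, in CPM, against the length of the conceptus in mm for the 4 AI and 7 IVF explants, each marked with its uterus number after U. The levels do not order by length in any of the 3 genes, and the longest conceptus, at 54 mm, stood with the highest IVF level of ISG15 and MX2.

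Longer conceptuses did not go with higher levels beyond the spread between explants. The IVF conceptus of uterus 2, the shortest at 8 mm, gave 2178 CPM of ISG15, 2399 CPM of MX1 and 511 CPM of MX2. The longest, at 54 mm in uterus 7, gave 3112 CPM of ISG15, 1943 CPM of MX1 and 1036 CPM of MX2. The conceptus of 33 mm in uterus 5 gave 1318 CPM of ISG15, the lowest of all conceptus libraries. Per doubling of length, the log2 level changed by 0.10 ± 0.15 for ISG15, by -0.14 ± 0.18 for MX1 and by 0.14 ± 0.35 for MX2 (SE, n = 11, edgeR adjusted p = 1 for each after rounding). None of the 15311 genes tested for the slope was called (0%), and 301 had an unadjusted edgeR p under 0.05. Without the IVF explant of uterus 7 the slope turned to -0.041 for ISG15 and -0.26 for MX2.

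Across the 11 conceptus libraries the correlation of log2 CPM with log2 length was r = 0.09 for ISG15 (rho = 0.08), -0.27 for MX1 (rho = -0.28) and 0.01 for MX2 (rho = 0.09), with permutation p values of r of 0.799, 0.436 and 0.985. These p values treat the AI and the IVF explant of the same uterus as independent. Without the 2 libraries farthest from the median length, r was -0.34, -0.25 and -0.32. In the 7 IVF libraries alone, which each came from another uterus, r was 0.04 for ISG15, -0.57 for MX1 and -0.09 for MX2, with exact permutation p values of 0.923, 0.19 and 0.846. The rho of MX1 was -0.71 there (exact permutation p = 0.0881, adjusted p = 0.529), that of MX2 was 0.036, and that of ISG15 was 0 after rounding. Adjusted over the 6 relations, every p of r was 0.985. Without the 2 most distant of the IVF libraries r was -0.70, -0.92 and -0.82 over 5 libraries, so the near-zero values of ISG15 and MX2 rested on the shortest and the longest conceptus.

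The share of the spread among treated explants that lay between uteri was larger than that between treatments in each of the 3 genes. Over the 12 IFNT, AI and IVF libraries of uteri 1 to 4, differences between uteri, with 3 of 11 degrees of freedom, held 68.1% of the sum of squares of log2 CPM for ISG15, 32.0% for MX1 and 57.7% for MX2. Differences between the 3 treatments, with 2 degrees of freedom, held 2.34%, 6.13% and 15.4%. In MX1 most of the spread, 61.8%, was neither, with 6 degrees of freedom. The share of MX1 between uteri lay close to the share of the degrees of freedom that uteri held, so MX1 is not read as differing by uterus. The MX1 log2 CPM of the IFNT explant of uterus 2 was 10.07, below the 10.99 and 11.23 of its AI and IVF explants, and in uterus 4 the IFNT, IVF and AI explants were spaced about evenly, at 11.60, 10.86 and 10.02. These shares describe the 12 libraries and carry no test.

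The difference of log2 CPM between MX2 and MX1 also varied between uteri, and it largely followed the level of MX2, the more variable of the 2 genes. The difference of log2 CPM between MX2 and MX1 within a library depends on the lengths of both genes, so only its differences between libraries are read. Among treated libraries it was highest in the IFNT explant of uterus 3, at -0.68, and ranged down to -1.39 in that uterus. Uterus 7, with 1 IVF library and no IFNT or AI library, was at -0.91. It was from -1.72 to -1.13 in uterus 1, from -2.36 to -2.06 in uterus 2 and from -2.74 to -1.71 in uterus 4. Its means were lowest in uterus 5, from -2.64 to -2.45, and in uterus 10, from -2.84 to -2.21. The uterus held 72.7% of its sum of squares over the 12 libraries and the treatment 22.6%. MX2 itself had a log2 CPM of 10.73 in the IFNT explant of uterus 3 and 10.02 in uterus 7. In uterus 5 it was at 7.75 with IFNT and 7.73 with IVF. The difference is therefore not read as a trait of the uterus apart from the level of MX2. The share was not computed for MX2 relative to ISG15, and no test was made. For ISG15 relative to MX1 the uterus held 28.9%, close to its share of the degrees of freedom. In Control the difference between MX2 and MX1 was also highest in uteri 1 and 3, at -4.28 and -4.32, and from -5.91 to -5.18 in the other 4.

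**Figure D5:**
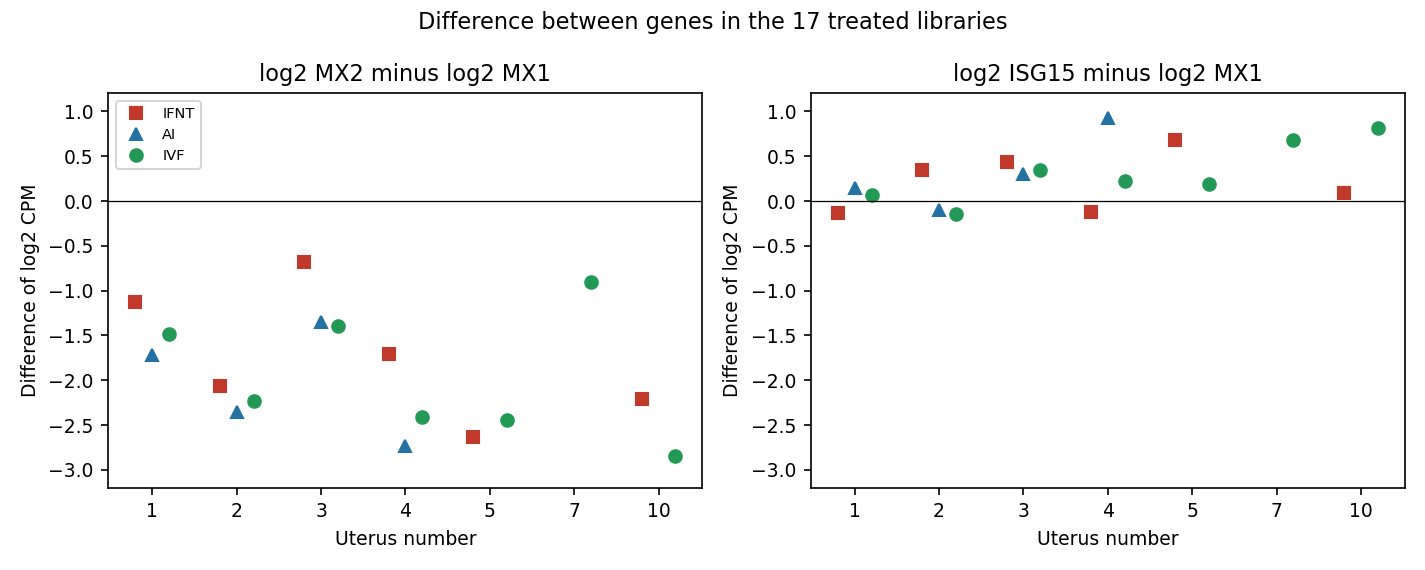
Difference of log2 CPM between MX2 and MX1 (left) and between ISG15 and MX1 (right) in the 17 treated libraries, by uterus and treatment. MX2 relative to MX1 is mostly higher in uteri 1, 3 and 7, of which uterus 7 has 1 library. It is low in uteri 5 and 10, but uterus 4 spans -2.74 to -1.71 and is not set apart from uteri 1, 5 and 10. The values of ISG15 relative to MX1 overlap between most uteri.

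No correlation between the level in medium alone and the level after treatment passed the adjusted test. For MX2 the correlation over 6 uteri between Control and IFNT log2 CPM was r = 0.78 (rho = 0.71, exact permutation p of r = 0.0639) and between Control and IVF r = 0.74 (rho = 0.77, exact permutation p of r = 0.1). Adjusted over 9 relations each was 0.398. Without the 2 uteri farthest from the median, r fell to 0.31 and -0.02. Leaving them out also narrows the range of the Control level, which can lower r by itself. For ISG15 r was 0.57 with IFNT and 0.57 with IVF (rho = 0.54 and 0.49), and for MX1 it was 0.29 and 0.60 (rho = 0.09 and 0.54), with exact permutation p values from 0.242 to 0.558. Between the IFNT and the IVF explants of the same uteri r was 0.47 for ISG15, 0.22 for MX1 and 0.66 for MX2 (rho = 0.66, 0.09 and 0.71), at exact permutation p values of 0.307, 0.688 and 0.176.

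Among the IFNT explants the 3 pairs of genes passed the adjusted test by r but not by rho. Over these 6 libraries r was 0.90 between ISG15 and MX1 (rho = 0.83), 0.88 between ISG15 and MX2 (rho = 0.94) and 0.91 between MX1 and MX2 (rho = 0.77). The exact permutation p values of r were 0.0097, 0.0111 and 0.0194, and each was 0.035 when adjusted over 9 relations. The adjusted exact permutation p values of rho were 0.175, 0.075 and 0.225. Without the 2 libraries farthest from the median, r was 0.97, 1.00 and 0.68 over 4 libraries. Over the 7 IVF libraries r was 0.79 between ISG15 and MX2 (rho = 0.96, exact permutation p of r = 0.0171, adjusted p = 0.035) and 0.85 between MX1 and MX2 (rho = 0.61, exact permutation p of r = 0.0181, adjusted p = 0.035). Without the 2 most distant libraries the first was 0.78 and the second 0.26. Leaving them out also narrows the range of levels, which can lower r by itself. ISG15 and MX1 gave r = 0.69 there (rho = 0.64, exact permutation p = 0.0857, adjusted p = 0.110). Over the 6 Control libraries r was -0.24 between ISG15 and MX1, 0.13 between ISG15 and MX2 and 0.82 between MX1 and MX2 (rho = -0.66, 0.09 and 0.43). None of these 3 passed, at adjusted p values of 0.650, 0.807 and 0.0958 from exact permutation, and the last turned to -0.998 without the 2 most distant libraries.

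Other genes followed the 3 members closely over all 23 libraries, where the step from Control to treatment dominates the likeness. The number of other genes with r above 0.9 in log2 CPM was 174 for ISG15, 186 for MX1 and 193 for MX2, of 15226. The gene most like MX2 was MX1, at r = 0.992. For ISG15 it was ENSBTAG00000045588, at r = 0.997. Its Control level was 12.8 CPM ± 5.25 (SD, n = 6), and its IFNT level was 1249 CPM ± 517 (SD, n = 6). For MX1 it was ENSBTAG00000003366, at r = 0.995, with 17.9 CPM ± 2.64 in Control (SD, n = 6) and 487 CPM ± 180 in IFNT libraries (SD, n = 6). When group means were removed and only the 17 treated libraries used, r between MX1 and MX2 was 0.90, and 33 other genes were closer to MX1 than MX2 was. ISG15 then had an r of 0.79 with MX1 and 0.83 with MX2, which ranked only 793 and 499 among the 15226 other genes by likeness to ISG15. From the side of MX1, ISG15 ranked 375, and from the side of MX2 it ranked 242. Many genes therefore varied with ISG15 more closely than the MX genes did. These values describe libraries that share uteri and carry no test.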

How the data were processed

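Stranded TruSeq mRNA libraries from 23 explants were sequenced, per the labels' protocols. The authors deposited unnormalized read counts per gene, with 1 column per library. HISAT2, StringTie, edgeR and the build UMD3.1 are named in the submitters' processing notes without versions or roles. How reads were assigned to genes (tool, annotation, strandedness, filters) is not given in the sources used here. MX1 and MX2 are related in sequence, and how the authors' counting treated reads that fit both is not known.

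Columns were matched to samples by description. The reference gene table (ARS-UCD2.0) holds 0 Ensembl identifiers, so the symbols of the 3 genes came with their identifiers in the selection rule, and lists of pathway genes and cell type markers could not be applied. Named genes were the 3 members and the 3 genes most like each, by Pearson r of log2 CPM over 23 libraries, with at most 2 printed where identifiers have no symbol. Members, lists and tests were chosen with earlier results of these data known.

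Counts were fitted in edgeR 4.0.16 (R 4.3.3) after filterByExpr and TMM, with the 4 treatment groups in 1 negative binomial model, or with AI and IVF regrouped by conceptus sex, and tested by quasi-likelihood F tests with Benjamini-Hochberg adjustment. Standard errors are the log2 fold change over the root of F, and 95% intervals use the t quantile of the model. Log2 CPM used a prior count of 2. The code was tested on simulated data. No pair of libraries agreed within sampling noise, with a smallest chi-square per degree of freedom of 21.3 over 253 pairs. The U numbers pair libraries: deviations from group means correlated in all 30 same-numbered pairs, from 0.15 to 0.71 with a median of 0.51. The median was -0.081 over the 166 pairs of different number and different group. The labels do not spell out that U is a uterus or an animal. Alternatives were a uterus block, DESeq2 1.42.0, median-ratio size factors, no filter, 2-group fits, left-out libraries and uteri, and other prior counts, library totals and length scales. Correlations of responses and the left-out libraries of the length slope were added after seeing the data. The shares of the sum of squares, the differences between genes within a library and the likeness with group means removed were also not planned beforehand.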

Additional observations from a re-analysis of the deposited data

Results flagged for a closer look

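In 2 of 30 sets of values examined, 1 value lay apart from the others of its set by a gap larger than Dixon's 95% critical value allows, a rate that chance gives to about 1 in 20 sets. Both were the IVF explant of uterus 2 against the IFNT explant of that uterus, where the difference in log2 CPM was 0.67 for ISG15 and 1.16 for MX1. In the other 5 uteri this difference lay between -0.70 and -0.23 for ISG15 and between -0.96 and -0.21 for MX1. The IFNT explant of uterus 2 had the lowest IFNT level of both genes, at 1365 CPM of ISG15 and 1072 CPM of MX1.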

How the results depend on the processing

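All 9 comparisons of ISG15, MX1 and MX2 against Control stayed called in every alternative, with and without the replicate block, and their log2 fold changes lay between 6.97 and 7.43 for ISG15, 5.15 and 5.82 for MX1 and 8.01 and 9.56 for MX2. The block gave 7.25, 5.60 and 9.00 for IFNT. No alternative brought a member past the threshold in the other comparisons. Of 612 alternative values 578 kept direction and side of the threshold, and 34, all small and uncalled, changed sign. With the replicate block, AI against IVF turned to -0.084 for MX1 and -0.23 for MX2 in edgeR and to -0.078 and -0.20 in DESeq2, and with plain library totals the paired AI against IVF of ISG15 was 0.034 where it had been -0.0057. Leaving out 1 library or uterus gave AI against IFNT from -0.24 to 0.016 for ISG15, -0.39 to 0.10 for MX1 and -0.94 to -0.26 for MX2. It gave IVF against IFNT from -0.32 to -0.062 for ISG15, -0.54 to -0.17 for MX1 and -0.86 to -0.32 for MX2. It gave AI against IVF from -0.033 to 0.18 for ISG15, -0.050 to 0.33 for MX1 and -0.30 to 0.34 for MX2, male against female from -0.19 to 0.047 for ISG15 and -0.44 to 0.061 for MX2, and the length slope from -0.041 to 0.17 for ISG15 and -0.26 to 0.26 for MX2. The cause of these changes was not tested. Genes called in all rose under the block from 489 to 875 for IFNT, 480 to 1709 for AI and 513 to 1134 for IVF against Control, and DESeq2 with the block called 1190, 2299 and 1701. DESeq2 called 36 genes for AI against IFNT and 14 for IVF against IFNT, and with the block 1729 and 390, 92 for AI against IVF and 66 for male against female. Depth was lowest for MX2 in Control, at 17 to 88 reads.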

Other observations

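MX2 was lower relative to MX1 in explants with a conceptus than in the IFNT explant of the same uterus, a pattern chosen after its values were seen and not tested. The difference of log2 CPM between MX2 and MX1 was lower with AI than with IFNT in 4 of 4 uteri, by a mean of -0.64 ± 0.30 (SD, n = 4). It was lower with IVF in 5 of 6 uteri, with a mean of -0.40 ± 0.36 (SD, n = 6), and uterus 5 was the exception at 0.19.

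No correlation between responses above Control over the 6 uteri passed the adjusted test. The responses of MX1 and MX2 gave r = 0.85 for IFNT (rho = 0.71, exact permutation p of r = 0.0444) and r = 0.83 for IVF (rho = 0.94, exact permutation p of r = 0.0431). Each p was 0.133 when adjusted over 6 relations, and r was 0.83 and 0.86 without the 2 uteri farthest from the median. The responses of ISG15 gave r of 0.33 and 0.02 with those of MX1 and -0.04 and 0.11 with those of MX2, for IFNT and IVF (rho = 0.31, 0.37, -0.09 and 0.26, exact permutation p of r from 0.539 to 0.972). A difference between these relations was not tested.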
